A study of Mus musculus with 4 samples.

Results

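Glycolysis was described at the level of 10 genes, followed through 4 libraries of mouse T-helper 2 cells. Of the members, 9 code for enzymes (Hk2, Gpi1, Aldoa, Tpi1, Gapdh, Pgk1, Eno1, Pkm and Ldha), and the other, Gm26762, is a long intergenic noncoding RNA gene annotated on the strand opposite Gpi1. They were taken by name, 10 of the 50600 genes in the deposited tables, and all 10 had counts in all 4 libraries. The libraries are total RNA-seq of primary T-helper 2 cells, the interleukin 4-making CD4 T cell subset, differentiated in culture from C57BL/6NJ mice. They form 1 group of 4 numbered biological replicates, with no treatment named beyond the differentiation. Neither an age nor a sex is recorded, and all 4 carry 1 donor identifier, so the spread between them may be partly technical. Headers of the deposited tables record 16 hours, with no statement of what the time counts from.

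Glycolysis splits glucose into pyruvate in the cytoplasm and yields ATP and NADH. Hexokinase traps glucose in the cell, an isomerase and a kinase prepare the sugar, aldolase cleaves it, and the later enzymes recover energy and end at pyruvate kinase. Activated T cells are known for raising glucose uptake and for turning much of the pyruvate into lactate even where oxygen is plentiful, a step made by lactate dehydrogenase that restores NAD+.

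The library totals ran from 1688658 to 2222583 counts, so enzymes with few counts carry a wide counting error. Counts were assigned with strand option 1 per the headers, and the sources used here do not say whether that option matches the strand read by the library kit. A count listed under a gene is therefore a fragment assigned to its strand under option 1, and the strand of origin was not tested. This limit holds for every level, order and ratio below: were the other strand the one of origin, the counts listed for an enzyme would be off-strand fragments, and a comparison of 2 genes on opposite strands need not keep its direction. Protein-coding genes with no gene opposite held 6.01 ± 1.23% of the counts (SD, n = 4). All 7 T cell markers had counts in every library, Trac highest at 22.4 TPM (a level per exon length and library total, computed from the counts and deposited lengths). Of 8 Th2 markers 5 did, Ptgdr2 highest at 57.3 TPM, and Il5, Il13 and Il1rl1 were at 0. Of 8 markers of other T cells 2 did, Cd8b1 at 3.92 TPM and Foxp3 at 149.9 TPM. Of 4 myeloid markers 2 did, Cd74 at 6.60 TPM and Csf1r at 155 TPM, and of 3 B cell markers Cd79a did. All 3 natural killer markers were at 0. The summed TPM of the other T cell list (147 to 164) and of the myeloid list (142 to 172) was thus above that of the T cell list (52.0 to 106) in every library, through Foxp3 and Csf1r. Both have an exon opposite, as do Cd3e, Gata3 and Ptgdr2. Cells of a type, RNA per cell and, where a gene lies opposite, off-strand fragments cannot be told apart as sources of a level in these samples.

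The Gpi1 locus is given first, because the antisense gene held far more counts than any enzyme. Gpi1 lies at chr7:34201330-34230336 on the minus strand of mm10, and codes for glucose-6-phosphate isomerase, which turns glucose 6-phosphate into fructose 6-phosphate. Gm26762 lies at chr7:34224755-34230236 on the plus strand with 2 exons, and its 3′ end stops 100 bases inside the start of Gpi1. The exons of these genes overlap by 741 bases in 4 of the 20 exon blocks of Gpi1. That is 11.5% of the exon bases of Gpi1 and 14% of those of Gm26762, which leaves 4543 exon bases of Gm26762 opposite no Gpi1 exon. The coding parts of the first 4 exons of the 18-exon Gpi1 transcript are printed because they are the coding sequence that faces the antisense gene. Capitals mark bases opposite a Gm26762 exon, and each sequence runs 5′ to 3′ on the strand named.
Gpi1 coding exon 1, chr7:34230092-34230213, minus strand: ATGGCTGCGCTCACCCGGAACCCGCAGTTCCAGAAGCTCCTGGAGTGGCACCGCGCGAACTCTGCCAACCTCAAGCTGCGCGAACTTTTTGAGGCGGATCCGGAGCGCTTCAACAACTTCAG
Gpi1 coding exon 2, chr7:34229283-34229373, minus strand: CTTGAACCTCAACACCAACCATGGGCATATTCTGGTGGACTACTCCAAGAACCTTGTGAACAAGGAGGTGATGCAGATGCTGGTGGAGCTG
Gpi1 coding exon 3, chr7:34228928-34228996, minus strand: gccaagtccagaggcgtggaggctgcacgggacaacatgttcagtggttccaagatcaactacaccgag
Gpi1 coding exon 4, chr7:34227118-34227237, minus strand: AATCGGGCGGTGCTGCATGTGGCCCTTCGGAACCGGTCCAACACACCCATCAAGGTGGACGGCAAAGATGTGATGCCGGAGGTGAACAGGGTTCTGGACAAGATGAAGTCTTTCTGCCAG
Gm26762 opposite Gpi1 exon 4, chr7:34227118-34227237, plus strand: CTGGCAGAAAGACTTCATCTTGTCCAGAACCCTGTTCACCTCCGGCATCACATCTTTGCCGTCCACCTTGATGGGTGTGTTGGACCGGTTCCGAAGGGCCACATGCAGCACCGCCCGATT
Exon 1 opens with the start codon of Gpi1. Exons 1, 2 and 4 face Gm26762 over all of their coding bases, 333 in sum. Exon 3 faces none, since it lies within the 198-base intron of Gm26762 at chr7:34228902-34229099. The last sequence is the same stretch as exon 4 read on the other strand, so a fragment from it can be given to 1 gene or the other only by its strand.

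**Figure D1:**
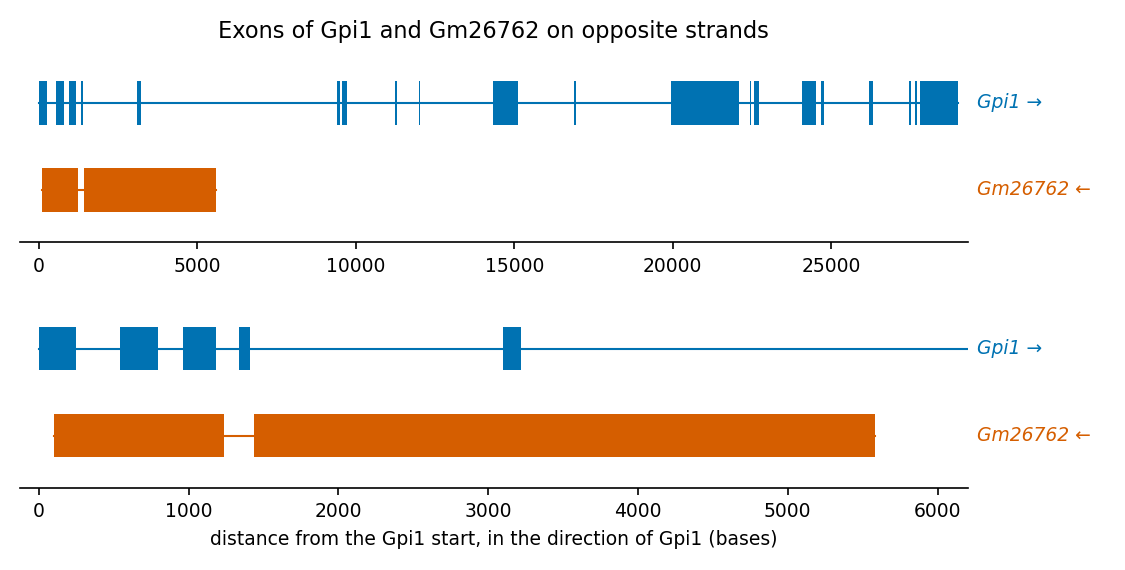
Exons (boxes) and spans (lines) of Gpi1 and Gm26762, by distance in bases from the Gpi1 start in the direction of Gpi1, for the whole of Gpi1 (top) and for its 5′ end (bottom). Arrows give the direction of each gene, and Gm26762 covers 4 of the 20 Gpi1 exon blocks.

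Gpi1 had 59, 37, 32 and 58 counts in replicates 1, 2, 3 and 4. Gm26762 had 6260, 6232, 9011 and 7138 counts in the same libraries. Under strand option 1 the antisense entry was thus higher in every library and held 99.1%, 99.4%, 99.6% and 99.2% of the counts of the pair. The 95% Wilson intervals of these shares ran from a lowest bound of 98.8% in replicate 1 to a highest bound of 99.7% in replicate 3, and cover counting error only.

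Per kilobase of exon the log2 ratio of Gm26762 to Gpi1 was 7.02, 7.68, 8.43 and 7.23 in replicates 1 to 4, a mean of 7.59 ± 0.62 (SD, n = 4), which is 193-fold. The difference was far larger than its spread between libraries, and its direction rests on the strand option. A ratio under the other option cannot be had from these tables, since most exon bases of Gm26762 face no Gpi1 exon. In an exact two-sided test over the sign patterns of the libraries, 2 of 16 patterns were as extreme, the fewest that 4 libraries allow, so no ratio here can pass 0.05. As a share of its library, Gm26762 took 0.371%, 0.365%, 0.405% and 0.379% of all counts, which placed it at rank 25 among all genes. Its level was 1058 ± 57.7 TPM (SD, n = 4). It varied little, with a coefficient of variation of 4.66% in CPM, its counts scaled to the library total.

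Among the enzymes, the lowest member opens the pathway. Hk2, the inducible hexokinase that phosphorylates glucose (chr6:82725025-82774454, minus strand), had 13, 9, 11 and 13 counts, or 1.53 ± 0.304 TPM (SD, n = 4). Its exact Poisson 95% intervals overlapped in all 4 libraries, running from 2.41 to 10.02 CPM in replicate 2 and from 4.10 to 13.2 CPM in replicate 1. Differences between libraries in Hk2 were therefore not detectable at this depth. Gpi1, the next enzyme, stood at 5.78 ± 2.04 TPM (SD, n = 4).

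The sugar-splitting steps are made by Aldoa and Tpi1. Aldoa, the aldolase that cleaves fructose 1,6-bisphosphate (chr7:126795234-126809108, minus strand), had 100, 77, 65 and 117 counts, or 19.1 ± 5.73 TPM (SD, n = 4). Tpi1, which interconverts the triose phosphates (chr6:124810586-124814296, minus strand), had 67, 38, 31 and 69 counts, or 15.0 ± 6.32 TPM (SD, n = 4). Both genes were highest in replicates 1 and 4 and lowest in replicate 3.

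The 3 highest enzymes were Gapdh, Pkm and Ldha, from the energy-yielding and lactate steps. Gapdh, which oxidises glyceraldehyde 3-phosphate and makes NADH (chr6:125161715-125166467, minus strand), had 141, 133, 99 and 166 counts, or 26.1 ± 6.87 TPM (SD, n = 4). Pkm, the pyruvate kinase that makes ATP at the last step (chr9:59656368-59679375, plus strand), had 164, 143, 107 and 223 counts, or 25.5 ± 8.53 TPM (SD, n = 4). Ldha, the lactate dehydrogenase subunit that turns pyruvate into lactate (chr7:46841475-46855627, plus strand), had 149, 119, 83 and 149 counts, or 30.4 ± 9.57 TPM (SD, n = 4). Each of these was lower in replicate 3 than in any other library, before and after scaling to the library total.

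Pgk1 and Eno1, between Gapdh and Pkm in the pathway, were far lower than their neighbours. Pgk1, the phosphoglycerate kinase (chrX:106187100-106203699, plus strand), had 15, 20, 6 and 21 counts, or 5.64 ± 2.71 TPM (SD, n = 4). In replicate 3 this was 2.70 CPM, with an exact Poisson 95% interval of 0.991 to 5.88. That interval lay below those of 6.91 to 17.1 in replicate 4 and of 7.16 to 18.1 in replicate 2. It overlapped that of 4.97 to 14.7 in replicate 1, and all of these intervals cover counting error only. Eno1, the enolase that makes phosphoenolpyruvate (chr4:150236721-150248879, plus strand), had 29, 42, 26 and 41 counts, or 5.14 ± 1.55 TPM (SD, n = 4). Fragments from near-identical copies may be split or left out of these counts, which was not tested. Of the 50-base stretches of the annotated transcripts, 53.9% for Pgk1 and 26% for Eno1 also occur in transcripts of another gene, Pgk1-rs7 and Eno1b first among them. For Pkm it was 25.8%, most of all with Gm49759, and for Gapdh 25.1%. Gpi1 had 8.36%, Ldha 9.26%, Aldoa 5.13%, Tpi1 4.18%, Gm26762 0.248% and Hk2 0%.

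**Figure D2:**
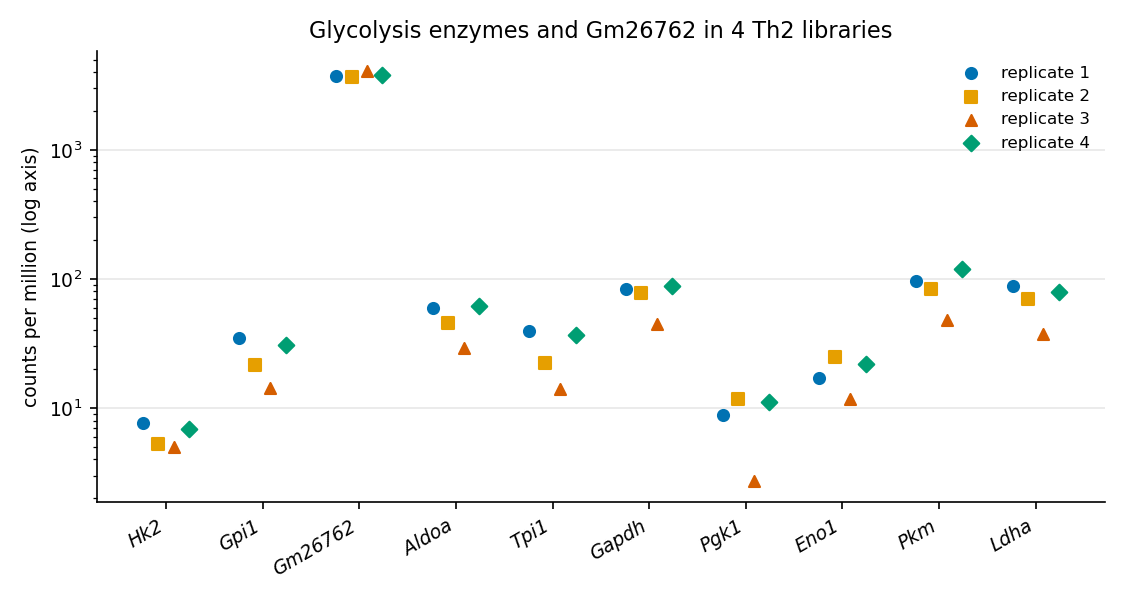
CPM (log axis) of the 10 genes in each of the 4 libraries, in pathway order with Gm26762 beside Gpi1; each point is 1 library. Gm26762 lies between 3655 and 4054 CPM, above every enzyme, and the 9 enzymes have their lowest point in replicate 3.

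By mean TPM of the fragments assigned to their strand, the order of the enzymes was Ldha, Gapdh, Pkm, Aldoa, Tpi1, Gpi1, Pgk1, Eno1 and Hk2. Neighbours in this order were compared per kilobase within each library. Tpi1 exceeded Gpi1 by 1.34 ± 0.13 on the log2 scale (SD, n = 4) and Eno1 exceeded Hk2 by 1.72 ± 0.49, in 4 of 4 libraries each. Those are the 2 largest steps of the order. The step from Tpi1 to Gpi1 depends on the deposited lengths, 2753 and 6452 exon bases. Counts summed over the libraries were close, 205 for Tpi1 and 186 for Gpi1. The 18-exon Gpi1 transcript alone has 2884 exon bases. Smaller differences of the same sign in 4 of 4 libraries separated Ldha from Gapdh (0.20 ± 0.14), Pkm from Aldoa (0.40 ± 0.11) and Aldoa from Tpi1 (0.41 ± 0.23). Gapdh and Pkm (0.06 ± 0.15), Gpi1 and Pgk1 (0.16 ± 0.66) and Pgk1 and Eno1 (-0.014 ± 0.56) did not differ beyond their spread.

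Set against each enzyme in turn, with the counts as assigned, Gm26762 was higher per kilobase in 4 of 4 libraries for all 9. The smallest mean log2 ratio was over Ldha, 5.19 ± 0.61 (36.4-fold), and the largest over Hk2, 9.46 ± 0.34 (SD, n = 4). Gapdh (5.38 ± 0.52), Pkm (5.44 ± 0.61), Aldoa (5.85 ± 0.55) and Tpi1 (6.25 ± 0.75) came next to Ldha, and Eno1 (7.74 ± 0.53) and Pgk1 (7.75 ± 1.06) stood with Gpi1. In the exact sign-flip test 2 of 16 patterns were as extreme for each of the 9, the fewest possible, and adjustment over the 9 leaves that share as it is. Its distance to Gpi1, the gene it faces, thus lay within the range of its distances to the other enzymes.

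In summed counts the 9 enzymes had 737, 618, 460 and 857 counts, which is 0.0436%, 0.0362%, 0.0207% and 0.0456% of the libraries. Replicate 3, the deepest library, had the fewest. Its 95% Wilson interval of 0.0189% to 0.0227% lay below that of replicate 2, 0.0335% to 0.0392%. Both intervals cover counting error only, not other spread between libraries. Summed TPM was 160, 134, 75.8 and 167, a mean of 134 ± 41.3 (SD, n = 4) and a highest-to-lowest ratio of 2.20. The same ratio for the share of Gm26762 was 1.11. Gm26762 alone had 8.49, 10.1, 19.6 and 8.33 times the counts of the 9 enzymes together.

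By CPM all 9 enzymes were lowest in replicate 3, where 46.7% of the 4918 genes tested were. Among the 1274 tested protein-coding genes with no gene opposite it was 63.9%. Pkm had 97.1, 83.9, 48.1 and 119 CPM in replicates 1 to 4, and Ldha had 88.2, 69.8, 37.3 and 79.2. The level in replicate 3 over the mean of the other libraries was 0.494 in the median enzyme, from 0.255 for Pgk1 to 0.747 for Hk2. Over all genes tested the median was 0.891, and over the tested protein-coding genes with no gene opposite 0.698. For Gm26762 it was 1.09, its highest library being replicate 3.

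Other values of the libraries moved with this. CT010467.1, a ribosomal RNA entry, took 1.29%, 5.05%, 9.40% and 1.62% of the counts in replicates 1 to 4. Protein-coding genes with no gene opposite took 6.16%, 5.78%, 4.55% and 7.53%, and the summed TPM of the 7 T cell markers was 87.6, 95.03, 52.0 and 106. All of these put replicate 3 at an extreme, and their part in the enzyme levels was not tested. Leaving CT010467.1 out of the totals kept all 9 enzymes lowest in replicate 3. Set against the counts of protein-coding genes with no gene opposite, the enzymes came to 0.709%, 0.627%, 0.455% and 0.605%, still lowest in replicate 3 but with a coefficient of variation of 17.7% in place of 30.9%. With that scaling, or with DESeq2-type size factors, 8 of 9 enzymes were lowest in replicate 3 and Hk2 in replicate 2, and the share of all tested genes lowest there was 13.2% and 22.9%. Among tested protein-coding genes with no gene opposite it was 30.8% and 45.5%.

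**Figure D3:**
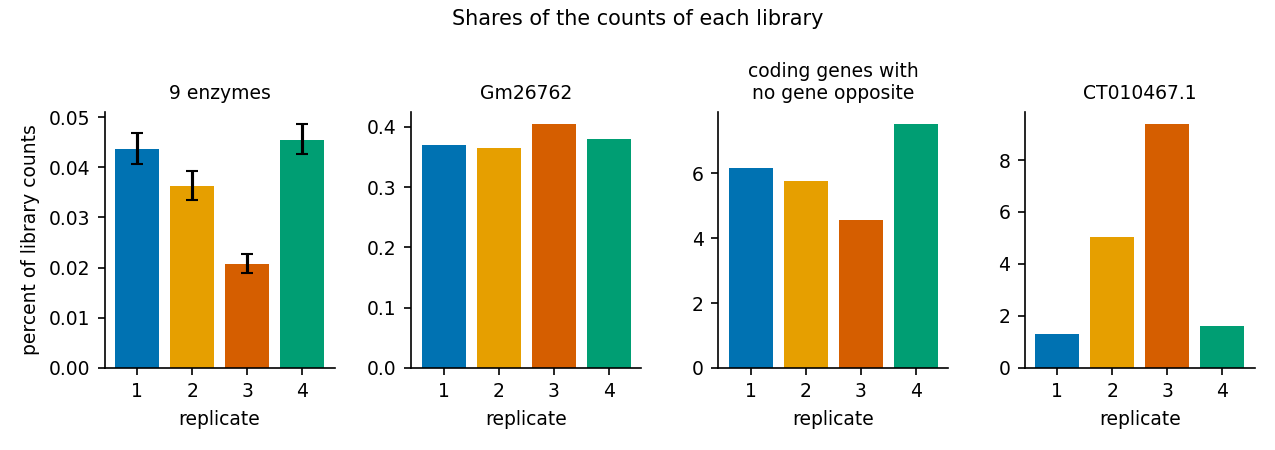
Percent of each library's counts in the 9 enzymes together (error bars, 95% Wilson interval), in Gm26762, in protein-coding genes with no gene opposite and in CT010467.1, 1 bar per library; the 4 vertical axes differ. The enzymes fall to 0.0207% in replicate 3, where CT010467.1 reaches 9.40% and Gm26762 stays at 0.405%.

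Whether single members varied between the libraries by more than genes of like abundance was tested across all genes with edgeR's quasi-likelihood fit. Of the members 8 entered, since the count filter removed Hk2 and Pgk1, and none passed at a Benjamini-Hochberg adjusted p of 0.05, beside 22 of 4918 genes, or 0.447%. Pkm came nearest, with an unadjusted p of 0.0187 and an adjusted p of 0.659. Ldha followed with 0.0329 and an adjusted p of 0.785, and these 2 were the only members under 0.05 unadjusted, where 281 genes, 5.71% of those tested, also lay. Tpi1 had an adjusted p of 0.885, Gapdh 0.956, Aldoa 0.961, Gpi1 and Gm26762 0.988 each and Eno1 0.991 in the same edgeR fit. With a chi-square on DESeq2's fitted dispersion no member passed either, and Pkm alone was under 0.05 unadjusted. So the low level in replicate 3 shared by the enzymes was not a variation that passed the test in any of the 7 tested enzymes. With 3 residual degrees of freedom per gene, a gene that did not pass was not thereby shown to be even between libraries.

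The test statistic, each gene's quasi-dispersion over the value fitted for its abundance, had a median of 2.12 over the 7 tested enzymes and of 0.795 over all genes tested. It was above that overall median in 7 of 7. This rested on replicate 3 and changed with the scaling to protein-coding genes with no gene opposite. It stayed at 7 of 7 with DESeq2 size factors (medians 1.39 and 0.771) and with library totals only (3.31 and 0.88). Without replicate 3 the medians were 0.693 over 8 tested enzymes and 0.692 over all genes, with 4 of 8 above. Scaled to protein-coding genes with no gene opposite they were 0.664 and 0.779, with 3 of 7 above, and the lowest unadjusted edgeR p of an enzyme was 0.226. The median coefficient of variation was 32.3% over the 9 enzymes, from 21.1% to 48.0%, against 17.9% over all genes tested. Low counts add to it, and the enzymes share the libraries, so these are descriptions.

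**Figure D4:**
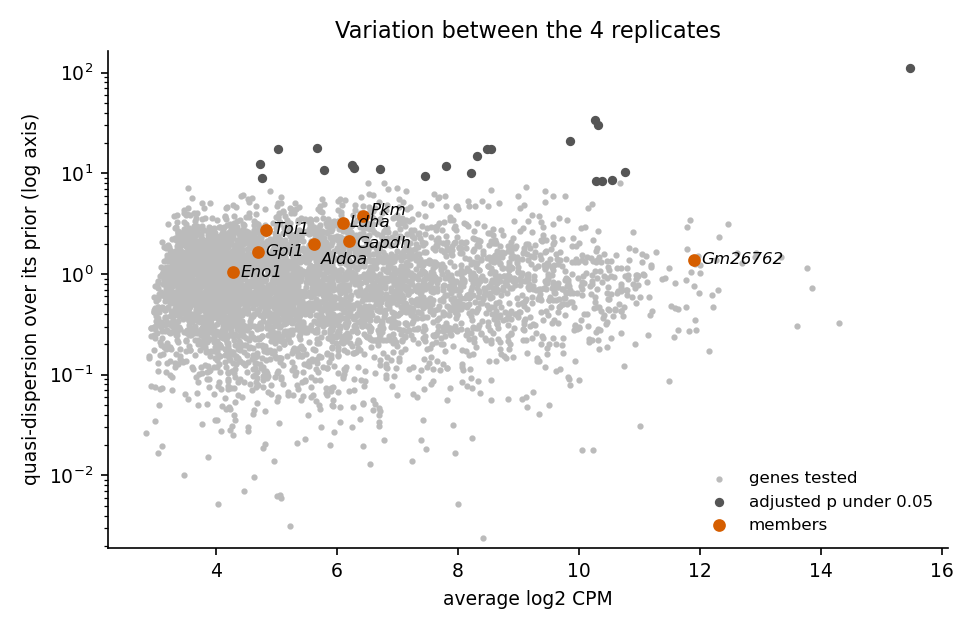
Quasi-dispersion over its fitted prior (log axis) against average log2 CPM for the 4918 genes tested; members are labelled and the 22 genes that passed are dark. The 8 members lie below the genes that passed, Pkm highest among them.

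Genes whose exons touch the other members were few. Aldoa faces Fam57b over 25 bases, and Fam57b had 6124, 5927, 7803 and 6347 counts beside the 65 to 117 of Aldoa. Tpi1 faces Spsb2 over 34 bases, with 18, 23, 33 and 27 counts listed for Spsb2. Gapdh faces Iffo1 over 68 bases, with 19, 13, 23 and 10 counts for Iffo1. Before scaling to the library total, Fam57b, Spsb2 and Iffo1 had their most counts in replicate 3, the deepest library. After that scaling, only Spsb2 among them kept its highest value in replicate 3. Pkm shares 767 exon bases with Gm49759 on its own strand, which had 2 to 5 counts a library, and fragments there may be split or left unassigned. Pgk1, Eno1, Pkm and Ldha have no gene on the other strand, and Hk2 has one by span only, with no exon overlap.

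The wider pathway was read from a list of 36 further genes: glucose and lactate transporters, other isoforms, regulators of phosphofructokinase, mitochondrial entry of pyruvate, and the transcription factors Hif1a and Myc. Of these 13 entered the variation test, none passed in edgeR at an adjusted p of 0.05, and none was under 0.05 unadjusted. Of all 45 pathway genes with the enzymes included, 34 had counts in all 4 libraries and 4 had none in any. Of the 21764 protein-coding genes, 8486 had counts in all 4.

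Among genes of that list with no exon opposite, the highest was Myc, the transcription factor that drives growth and glycolytic genes, with 61, 68, 77 and 140 counts and 25.02 ± 10.2 TPM (SD, n = 4). Pgam2, the muscle form of phosphoglycerate mutase, had 26, 19, 30 and 23 counts and 22.8 ± 3.01 TPM. The lactate transporters Slc16a3 (MCT4) and Slc16a1 (MCT1) stood at 10.7 ± 0.974 and 9.89 ± 2.35 TPM. Myc and Slc16a1 were lowest by CPM in replicate 3, as the enzymes were, while Pgam2 was lowest in replicate 2 and Slc16a3 in replicate 4.

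Other genes of the pathway also face a gene on the other strand, and the 6 with the most counted partner are given. Hif1a, the oxygen-regulated transcription factor of glycolytic genes, had 30, 23, 22 and 52 counts. The antisense gene Gm15283, which overlaps it by 330 exon bases, had 2717, 2848, 3750 and 3025 counts, or 1666 ± 60.3 TPM (SD, n = 4). Pdha1, a subunit of the pyruvate dehydrogenase that feeds pyruvate to the citric acid cycle, had 28, 36, 19 and 26 counts, and Map3k15 opposite over 603 bases had 2705, 2678, 3595 and 2844. In both pairs the gene opposite exceeded the pathway gene in every library.

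Mpc1, part of the mitochondrial pyruvate carrier, had 3, 1, 1 and 7 counts, and 4930506C21Rik opposite over 480 bases had 847, 890, 971 and 873. Slc2a1, the glucose transporter GLUT1, had 16, 12, 16 and 18 counts, and Gm12868 opposite over 105 bases had 302, 252, 416 and 268. Tigar, a fructose bisphosphatase that slows glycolysis, had 4, 3, 1 and 9 counts, and Platr31 opposite over 122 bases had 135, 104, 214 and 112. Pfkm, the muscle form of phosphofructokinase, was the higher of its pair. It had 114, 144, 158 and 136 counts, and Senp1, which overlaps it by 18 bases, had 32, 10, 28 and 37.

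**Figure D5:**
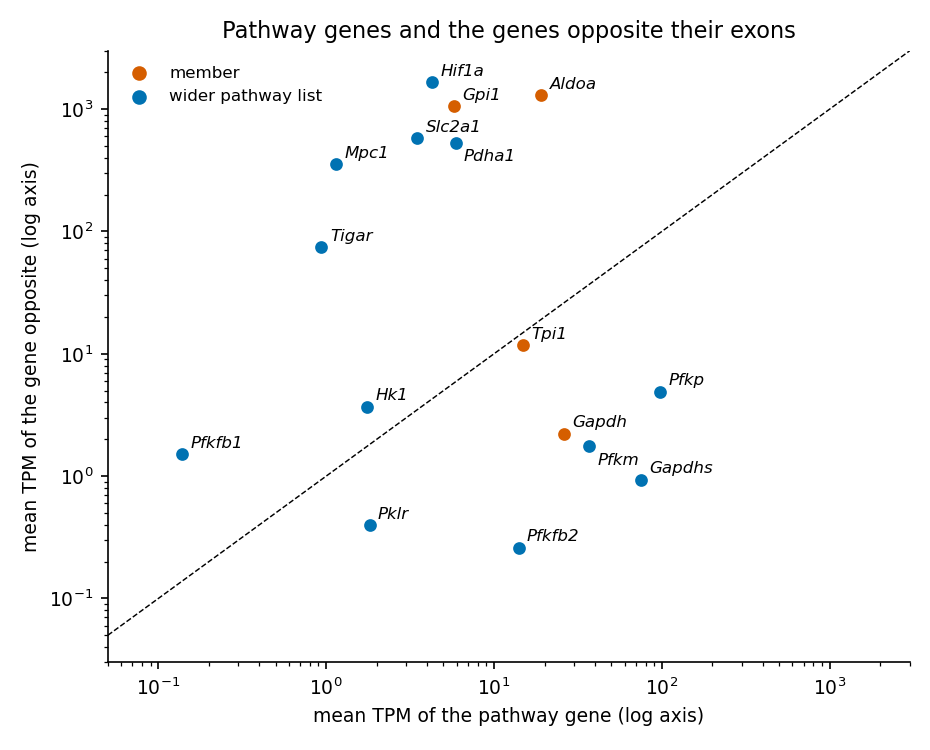
Mean TPM over the 4 libraries of each pathway gene with an opposite exon (horizontal, log axis) and of the gene opposite (vertical, log axis), for 16 of 17 pairs; Hk3 is left out because the gene opposite it is listed at 0. The dashed line marks equal levels, and Gpi1, Aldoa, Hif1a, Slc2a1, Pdha1, Mpc1 and Tigar lie far above it.

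Of the 17 pathway genes with an exon opposite, the gene opposite was higher per kilobase in 9 and lower in 8. Among the latter, named after their values were seen, were Pfkp, the platelet form of phosphofructokinase, with 4637 counts over the libraries against 86 for Pitrm1, Gapdhs with 624 against 7 for Tmem147os, and Pfkfb2 with 516 against 8 for Yod1. Pfkp stood at 97.2 ± 5.30 TPM (SD, n = 4), Gapdhs at 75.5 ± 10.6 and Pfkm at 36.7 ± 3.92, each above all 9 enzymes. The pathway genes with an exon opposite had a median of 5.78 TPM, which is that of Gpi1 itself, and the 28 without one 0.906 TPM. Over all protein-coding genes these medians were 1.5 TPM for the 4801 with an exon opposite and 0.0 TPM for the 16963 without.

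Placed among the 2480 noncoding genes that have an exon opposite a coding exon, Gm26762 ranked 133 by mean TPM. The entries next to it were Gm13008 (1077 ± 43.1 TPM, opposite Eloa), Gm26841 (1065 ± 41.8, opposite H13), Gm26590 (999 ± 27.6, opposite Chd8) and Gm15886 (996 ± 36.0, opposite Hipk1; SD, n = 4 for each). The coding genes facing them had 66 to 312 counts summed over the libraries, as Gpi1 had 186. In 1516 of 1955 pairs with a count, or 77.5%, the noncoding gene was the higher per kilobase under strand option 1, on which the direction of these pairs rests too. Where both genes had counts, in 1521 pairs, the median log2 ratio was 5.86. That of Gm26762 over Gpi1 from summed counts was 7.55, and 70.7% of the pairs lay below it.

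The upstream sequences of the enzymes were searched for motifs on both strands, in the 250 bases before each RefSeq start (build GRCm38.p6). All 9 enzymes matched, with 15 promoters between them, beside 32851 promoters of all genes. Some of the 15 windows overlap, so the same site can count more than once, as at Aldoa and Eno1. Others lie at least partly in annotated untranslated exon sequence of the enzymes, over 245 and 250 bases in Eno1 windows. The Pkm windows had 208 and 140 such bases, and the one with 140 holds the ACGTG match. Aldoa windows had 193 and 76, and the Tpi1 window 24. Shares of the 15 are therefore not shares of separate promoters. ACGTG and GCGTG are the 2 forms of the core bound by hypoxia-inducible factors. ACGTG was in 16.6% of all promoters and in 6 of 15 of the enzymes', at Hk2, Aldoa, Pgk1, Pkm and Ldha. GCGTG was in 28.2% of all and in 5 of 15, at Gapdh, Eno1 and Ldha. CACGTG, the palindrome bound by Myc and its relatives, which contains ACGTG, was in 6.02% of all and at Ldha alone. The windows of Pgk1 and Ldha are printed as examples from enzymes with no gene opposite, holding 2 and 5 ACGTG matches on the 2 strands together (Hk2 also holds 2), with matches to ACGTG on either strand in capitals.
Pgk1, chrX:106186850-106187099, plus strand: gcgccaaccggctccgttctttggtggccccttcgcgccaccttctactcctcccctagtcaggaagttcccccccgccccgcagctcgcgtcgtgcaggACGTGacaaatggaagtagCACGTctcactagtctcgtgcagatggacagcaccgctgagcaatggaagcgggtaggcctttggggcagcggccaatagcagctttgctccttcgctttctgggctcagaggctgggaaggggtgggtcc
Ldha, chr7:46845554-46845803, plus strand: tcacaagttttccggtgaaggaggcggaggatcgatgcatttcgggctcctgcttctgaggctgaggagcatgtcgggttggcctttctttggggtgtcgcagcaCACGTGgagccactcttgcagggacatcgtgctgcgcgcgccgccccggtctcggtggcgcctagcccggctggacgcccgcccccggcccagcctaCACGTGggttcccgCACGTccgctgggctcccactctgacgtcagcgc
In the Ldha window each of the 2 CACGTG palindromes counts as a match on both strands. The window of Gpi1, chr7:34230337-34230586, held none of the 3 motifs. A match is a run of letters and not a bound site, and the levels of the enzymes were not compared with it.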

How the data were processed

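The authors deposited a count of fragments per gene for each of 4 libraries, made with featureCounts 1.4.6-p4 per the file headers (mm10, GENCODE M13, pairs with both ends mapped, counted over exons per gene, strand option 1). The labels give total RNA-seq, while the name of their linked protocol speaks of poly(A) RNA. No version of the aligner is stated in the sources used here. Symbols came from GENCODE M21 by gene identifier (99.6% of 50600 genes) and promoters from RefSeq.

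CPM, and TPM from the deposited lengths, were computed here. For variation between the libraries, edgeR 4.0.16 was fitted with an intercept alone (TMM, filterByExpr with a minimum count of 10, robust quasi-likelihood), and the upper tail was taken of the quasi-dispersion over its trended prior with 3 residual degrees of freedom, Benjamini-Hochberg adjusted over all genes at 0.05. The step was tested on simulated data. Ratios within libraries had exact two-sided sign-flip tests over 16 sign patterns. No pair of libraries agreed within sampling noise (chi-square per degree of freedom 3.52 to 18.5). Exon overlaps were taken with bedtools 2.31.1. DESeq2 1.42.0 and limma 3.58.1 on log2(TPM + 1) served as alternatives, beside other scalings, filters and totals and leaving out each replicate; leaving out CT010467.1 from the table and rescaling the lowest-library counts were added after seeing the data.

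The members, lists and naming rules were chosen with earlier results of these data known. By rule the text names all members, 4 further pathway genes with no opposite exon and 6 with the most counted partner, the 2 noncoding entries on either side of Gm26762 by TPM, and genes overlapping a member. CT010467.1 was chosen after its values were seen.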

Additional observations from a re-analysis of the deposited data

Results flagged for a closer look

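Of 22 values per library checked for a library standing apart from the other 3, 1 met the limit. The log2 ratio of Gm26762 to Gapdh per kilobase was 6.15 in replicate 3, beside 5.12, 5.20 and 5.07 in replicates 1, 2 and 4. About 1 in 20 such values is expected to meet this limit by chance. The 22 values share genes and libraries and are not independent, so this rate does not tell whether the ratio to Gapdh met it by chance.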

How the results depend on the processing

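Of 194 values recomputed under an alternative, 183 kept their direction and side of the threshold or moved less than the spread between replicates, 11 moved, and 0 reversed. No alternative changed the strand option, so these values do not test the directions that rest on it. For Gm26762 over Gpi1, raw counts and shared bases gave the same log2 ratio by construction, 7.30, and both are among the 194. The count of varying genes, 22 in edgeR, was 3 with library totals only, 56 with no count filter, 44 with a mean count of 10 or more, 9 without the robust option, 1 with limma on log2(TPM + 1) and 14 without CT010467.1, and from 11 to 21 with a replicate left out; the cause was not tested. No member was among them in any of these. The share of the 9 enzymes was 0.599% of the counts in protein-coding genes with no gene opposite, and their summed TPM 564 over protein-coding nuclear genes and 4485 over protein-coding genes with no gene opposite, since fewer genes share the total. With a replicate left out the share of library counts ran from 0.0335% to 0.0418% and the summed TPM from 123 to 154. The difference of the pathway medians, 4.88 TPM, was 2.88 TPM where an opposite exon had to cover 100 bases or more, and 4.11 to 5.67 with a replicate left out. The log2 ratio of Gm26762 to Gpi1 lay between 7.31 and 7.78 with a replicate left out. No paired analysis was possible because the libraries form 1 group. With 6 to 223 counts for an enzyme in a library, small differences between libraries were not detectable, and strand assignment and near-identical copies limit the levels.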
